A study of Rattus norvegicus with 6 samples.

Results

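The 7 genes described here, of cholesterol synthesis and its transcriptional control, were followed in a rat chondrosarcoma cell line and in rat rib: the enzyme genes Hmgcs1, Fdft1, Sqle, Lss and Dhcr7 and the regulator genes Srebf1 and Srebf2. They were taken from the RNA sequencing table by gene symbol, ignoring case, and each matched 1 entry, 7 of 27217 genes in all. RCS cells, which derive from a rat cartilage tumour, gave 3 libraries and neonatal rat ribs gave another 3, all of total RNA, and the labels name no treatment, strain, genotype or exact age for either. RCS cells are 1 tumour line, a rib piece holds cartilage together with bone, muscle, fat and blood vessels, and the labels do not say whether animals were pooled. The design text calls the replicates biological without naming cultures or animals, so the p-values measure the spread between these libraries only.

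Cholesterol is built from acetyl units. Hmgcs1 makes the hydroxymethylglutaryl unit at the head of the mevalonate pathway, Fdft1 joins farnesyl units into squalene, Sqle adds the epoxide, Lss closes the sterol rings and Dhcr7 removes a double bond in one of the last steps. SREBP-2, encoded by Srebf2, is the factor that turns on these genes when the membranes of the endoplasmic reticulum run low in sterol, and SREBP-1, encoded by Srebf1, is best known for fatty acid synthesis genes. In growing cartilage cholesterol is also the group that is attached to hedgehog ligands, and inherited loss of DHCR7 in humans gives skeletal malformations.

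Each library held an estimated 5320000 to 8520000 reads on genes, and a library's smallest unit, 1 read, was worth 0.519 to 1.03 normalized counts. Levels are called normalized counts, taken here as read counts divided by 1 factor per library and not by gene length. This reading is inferred from the values, and the estimated reads rest on it. Levels are compared between groups for a gene and not between genes. Differences are RCS cells minus rib tissue on the scale log2(normalized count + 1), tested in limma with Benjamini-Hochberg adjustment over all 16809 genes tested, and called at an adjusted p under 0.05. Every one of the 7 genes was tested, on an estimated 150 to 2608 reads per library. The 10 cartilage markers were present in RCS cells, with 2 higher, 3 lower and 5 neither, whereas the 9 skeletal muscle markers summed to 133 to 167 normalized counts in RCS cells, against 24090 to 43646 in the ribs, and the 10 adipocyte markers to 208 to 232 in RCS cells, against 1746 to 3741 in the ribs. All 10 proliferation markers were higher in RCS cells, at sums of 11700 to 12991, against 4744 to 5568 in the ribs, and the part of tissue makeup or growth in the differences was not tested.

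Between RCS cells and rib tissue, 6 of the 7 genes differed. In RCS cells Hmgcs1, Fdft1, Lss and Srebf2 fell and Sqle and Dhcr7 rose, while Srebf1 did not pass the test. All 7 differences were under 2-fold. Over all tested genes 76.5% were called, 32.9% higher and 43.6% lower in RCS cells, so a count of 6 of 7 lies close to the background. A called difference of at least 2-fold was found for 47.2% of all genes and for 0 of the 7. Groups were without overlap for 6 of the 7, against 78.9% of all genes: 2 higher in RCS cells, against 34.4%, and 4 lower, against 44.5%. In bulk RNA, fewer cells of a type and less RNA per cell cannot be told apart.

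**Figure D1:**
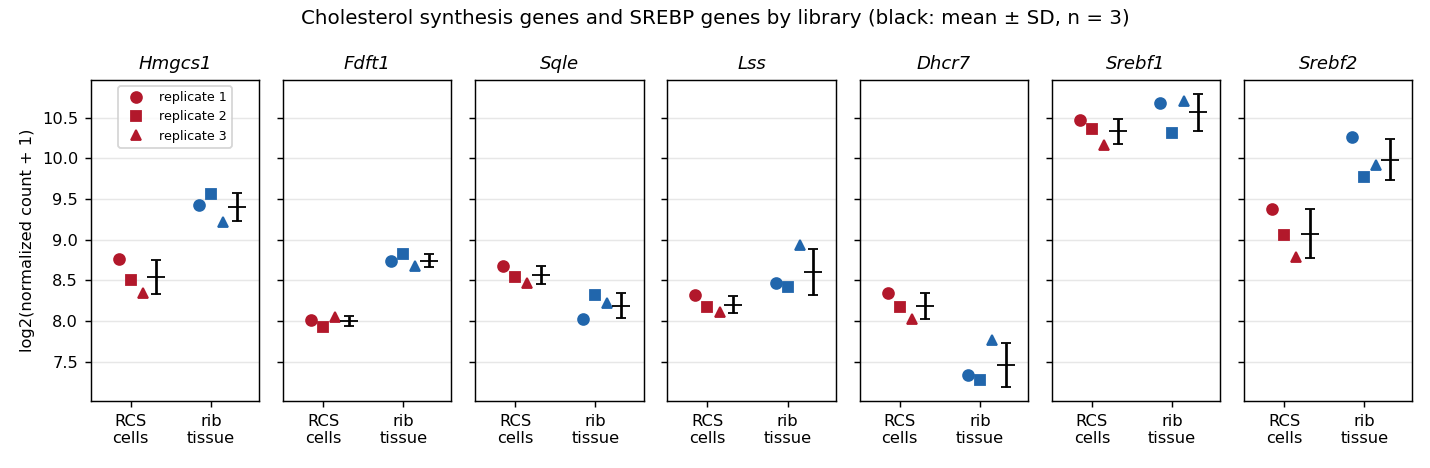
Levels of the 7 genes in each library as log2(normalized count + 1), RCS cells in red and rib tissue in blue, with marker shapes for replicate numbers and the black bar for mean ± SD of 3 libraries. Hmgcs1, Fdft1, Lss and Srebf2 lie lower in every RCS library than in any rib library, Sqle and Dhcr7 lie higher, and Srebf1 overlaps.

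The promoters of 3 of these genes are shown because Srebf2 and Hmgcs1 had the largest falls and Dhcr7 the largest rise among those with a promoter entry. The windows run from 250 bases before to 50 bases after the RefSeq start on build GRCr8, which is not the build of the expression table, and capitals mark matches to TCACNCCA, a short form of the sterol regulatory element that SREBPs bind, and to CCAAT, the box of the cofactor NF-Y, on either strand. The Srebf2 window is chr7:115543057-115543356 (plus strand), the Hmgcs1 window chr2:53382054-53382353 (plus strand) and the Dhcr7 window chr1:208444184-208444483 (plus strand).
Srebf2 promoter: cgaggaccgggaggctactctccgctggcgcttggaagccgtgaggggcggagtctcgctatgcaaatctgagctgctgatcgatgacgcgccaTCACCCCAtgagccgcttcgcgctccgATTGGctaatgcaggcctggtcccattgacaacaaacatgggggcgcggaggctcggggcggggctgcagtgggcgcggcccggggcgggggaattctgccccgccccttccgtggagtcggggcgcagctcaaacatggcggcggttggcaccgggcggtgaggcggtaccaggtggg
Hmgcs1 promoter: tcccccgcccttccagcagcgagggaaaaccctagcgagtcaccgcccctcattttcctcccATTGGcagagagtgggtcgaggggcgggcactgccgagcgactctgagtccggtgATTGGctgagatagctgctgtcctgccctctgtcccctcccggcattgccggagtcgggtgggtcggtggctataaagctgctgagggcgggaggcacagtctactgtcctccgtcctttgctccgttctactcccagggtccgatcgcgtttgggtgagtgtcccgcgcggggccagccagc
Dhcr7 promoter: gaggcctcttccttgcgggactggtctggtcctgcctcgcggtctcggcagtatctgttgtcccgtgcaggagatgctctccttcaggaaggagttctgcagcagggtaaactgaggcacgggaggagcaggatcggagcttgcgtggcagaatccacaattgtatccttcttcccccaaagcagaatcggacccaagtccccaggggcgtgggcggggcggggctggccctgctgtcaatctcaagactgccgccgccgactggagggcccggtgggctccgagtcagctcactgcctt

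RefSeq windows of this kind were matched for 5 of the 7 genes, in 6 windows, since Srebf1 has a pair of starts. The Srebf2 window held TCACNCCA once, with its first base at position -156 from the start, and a CCAAT box read on the minus strand (ATTGG) at -129. Of the 6 windows this was the 1 with TCACNCCA, a motif held by 3.89% of all 33469 promoter windows of 300 bases, and none (0) held the longer TCACNCCAC, found in 1.12% of all. A CCAAT box was in 5 of the 6 windows, in Hmgcs1 at -188 and -133, against 37.5% of all windows. The GC box GGGCGG, bound by Sp1, was in 6 of 6, against 33.1% of all, and no GC box overlapped a match in capitals. Both Srebf1 windows are included in these counts, and an excess over all windows was not tested. In the printed Dhcr7 window neither of the capitalised motifs occurs, which says only that these letters are not in that window.

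At the head of the pathway, Hmgcs1 (ENSRNOG00000016552) stood at 435, 364 and 325 normalized counts in RCS cells replicates 1 to 3, against 684, 752 and 594 in rib tissue replicates 1 to 3. The highest RCS library lay below the lowest rib library. On the log2 scale Hmgcs1 averaged 8.54 ± 0.21 in RCS cells, against 9.40 ± 0.17 in rib tissue (SD, n = 3 each). The difference was -0.86 (SE 0.13, 95% interval -1.16 to -0.56, limma adjusted p 0.000384), or 1.81-fold lower in RCS cells. The call was made under all 14 alternative settings.

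Fdft1 (ENSRNOG00000021314), which commits farnesyl diphosphate to sterols, stood at 259, 243 and 264 normalized counts in RCS cells, against 425, 452 and 408 in rib tissue. It was the least variable of the 7 within groups, with an SD of 0.062 log2 in RCS cells against 0.076 in the ribs. The difference was -0.75 (SE 0.082, interval -0.93 to -0.56, limma adjusted p 5.53e-05), or 1.68-fold lower in RCS cells, and it too was called under all 14 alternatives.

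Sqle (ENSRNOG00000009550), the squalene epoxidase gene and a rate-limiting step after squalene, went the other way. Its levels were 409.6, 372 and 352 normalized counts in RCS cells, against 259, 320.2 and 298 in rib tissue. No RCS library overlapped the rib range, but the nearest libraries, RCS cells replicate 3 and rib tissue replicate 2, were close. The difference was 0.37 (SE 0.11, interval 0.13 to 0.61, limma adjusted p 0.0117), or 1.29-fold higher. The call was lost under cyclic loess (0.19, limma adjusted p 0.137) and without RCS cells replicate 1 (0.31, limma adjusted p 0.0535).

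Lss (ENSRNOG00000001267), the gene of lanosterol synthase, stood at 319, 287 and 277 normalized counts in RCS cells, against 354, 340.5 and 487 in rib tissue. Rib tissue replicate 3 stood above the other rib libraries, which were close to the RCS libraries. The difference was -0.40 (SE 0.14, interval -0.73 to -0.08, limma adjusted p 0.03). It had the largest adjusted p of the 6 calls and was kept in 10 of 14 alternatives. Without rib tissue replicate 3 the difference was -0.24 (limma adjusted p 0.0413). The call was lost under median scaling (-0.11, limma adjusted p 0.528), with no filter on low values, and without RCS cells replicate 2 (-0.39) or RCS cells replicate 3 (-0.36).

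Dhcr7 (ENSRNOG00000020776), the 7-dehydrocholesterol reductase gene, stood at 325, 287 and 260.4 normalized counts in RCS cells, against 161, 154 and 217 in rib tissue. Rib tissue replicate 3 was again the highest rib library, and all RCS libraries lay above it. Dhcr7 averaged 8.18 ± 0.16 in RCS cells, against 7.46 ± 0.27 in rib tissue (log2, SD, n = 3 each). The difference was 0.72 (SE 0.15, interval 0.38 to 1.07, limma adjusted p 0.00235), or 1.65-fold higher, called under all 14 alternatives.

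Of the regulators, Srebf2 (ENSRNOG00000007400) had the largest difference among the 7 genes in size. It stood at 664, 534 and 440.2 normalized counts in RCS cells, against 1224, 869 and 966 in rib tissue. The highest RCS library lay under the lowest rib library. The difference was -0.91 (SE 0.17, interval -1.30 to -0.51, limma adjusted p 0.00143), or 1.87-fold lower in RCS cells, called under all 14 alternatives.

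Srebf1 (ENSRNOG00000003463) stood at 1419.6, 1312 and 1149 normalized counts in RCS cells, against 1632, 1265 and 1669.99 in rib tissue. Rib tissue replicate 2 lay among the RCS libraries. The difference was -0.23 (SE 0.13, interval -0.53 to 0.07, limma adjusted p 0.138), so that a fall of up to 0.53 or a rise of up to 0.07 on the log2 scale is within the interval. It was called lower without rib tissue replicate 2 (-0.36, limma adjusted p 0.0269), and its sign turned under quantile normalization (0.11) and median scaling (0.062).

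**Figure D2:**
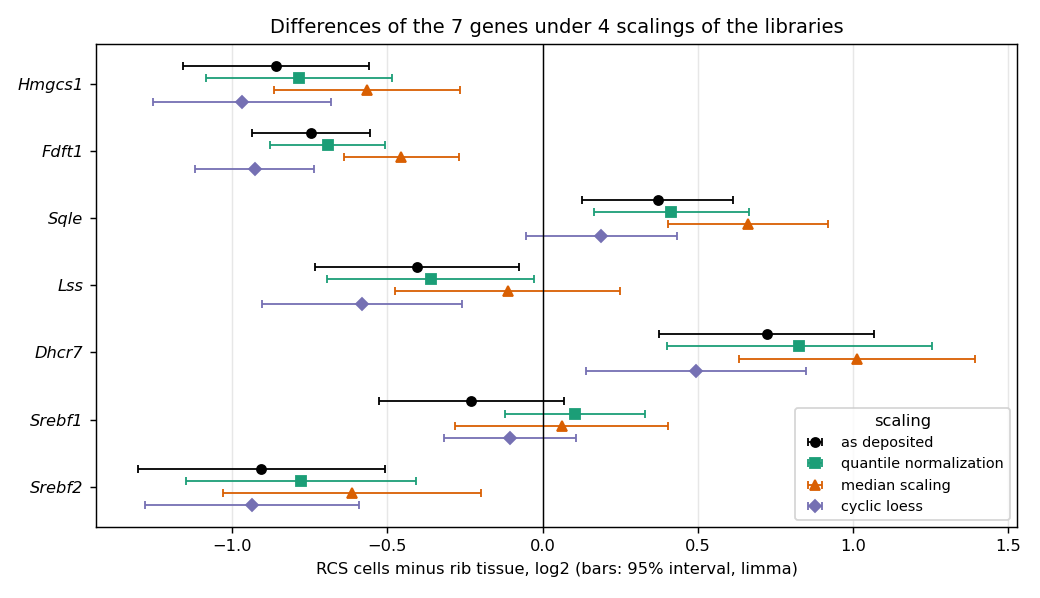
Difference of each gene, RCS cells minus rib tissue in log2, with its 95% interval from limma, for the libraries as deposited and after 3 other scalings. Hmgcs1, Fdft1 and Srebf2 stay below 0 and Dhcr7 above 0 with their whole interval in all 4, while the interval of Lss reaches 0 under median scaling, that of Sqle under cyclic loess and that of Srebf1 in all 4.

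Other scalings moved the median gene. Median scaling moved each of the 7 genes by the same amount as the median gene. Quantile normalization and cyclic loess moved the 7 genes by amounts that differed from it. Under cyclic loess all of the 7 but Srebf1 moved the opposite way. Relative to the deposited values, the median gene moved by 0.47 towards RCS cells under quantile normalization, 0.29 under median scaling and 0.18 under cyclic loess, and the higher share among calls was 61.9%, 53.5% and 50.1% under these scalings, against 43.0% as deposited. Set against the median gene of the same setting, over these 4 settings, the difference was -1.11 to -0.70 for Hmgcs1, -1.01 to -0.59 for Fdft1, -1.10 to -0.75 for Srebf2 and -0.68 to -0.25 for Lss. On the same relative scale Sqle was at 0.092 to 0.52, Dhcr7 at 0.47 to 0.87 and Srebf1 at -0.22 to -0.077. Median scaling leaves these relative values as deposited by construction, so it adds nothing to the ranges.

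Ratios of 2 genes within a library hardly depend on that library's scaling factor. The 5 pairs follow the order of the steps, plus the pair of regulators, and were chosen after the values were seen, so the ratios restate the differences above on another scale and are given as a description with no test. The log2 ratio of Sqle to Fdft1, the enzymes on either side of squalene, was 0.66, 0.62 and 0.42 in RCS cells, against -0.71, -0.50 and -0.45 in rib tissue, a difference of 1.12 or 2.17-fold. The ratio of Dhcr7 to Lss was 0.028, 0.00043 and -0.087 in RCS cells, against -1.14, -1.14 and -1.17 in rib tissue, a difference of 1.13 or 2.19-fold. For both ratios the libraries of RCS cells lay above those of rib tissue.

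The ratio of Lss to Sqle was lower in each RCS library than in any rib library, by 0.78 between the means, and so was that of Srebf2 to Srebf1, by 0.68. The ratio of Fdft1 to Hmgcs1 overlapped, at -0.54 ± 0.23 in RCS cells against -0.66 ± 0.098 in rib tissue (SD, n = 3 each).

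**Figure D3:**
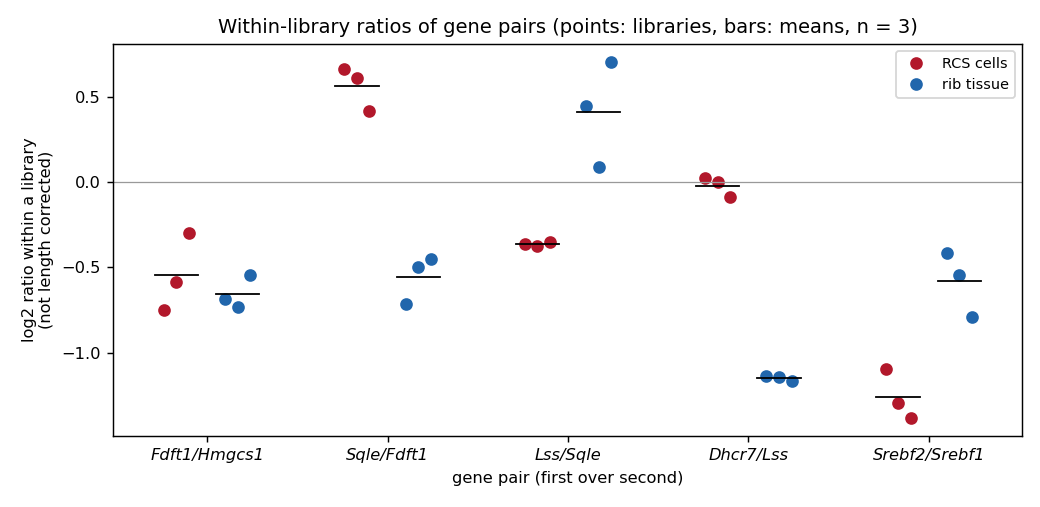
Log2 ratio of 2 genes within each library, RCS cells in red left of rib tissue in blue, with black bars for the means of 3 libraries. The groups are apart for 4 pairs and overlap for Fdft1 to Hmgcs1, and the level of a ratio itself depends on transcript length, which was not corrected.

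Within the RCS group most of the genes shared 1 order of the libraries. RCS cells replicate 1 was the highest and replicate 3 the lowest of the 3 RCS libraries for 6 of the 7 genes, all but Fdft1, a pattern held by 21.8% of all tested genes. Replicate 3 was also the RCS library of lowest estimated depth, at 6000000 reads, against 8310000 and 8520000 for the others. The part of depth or culture in this pattern was not tested. Within rib tissue, replicate 3 was highest for Lss, Dhcr7 and Srebf1. It was also the rib library with the lowest sums of muscle, adipocyte, fibroblast, osteoblast, macrophage and osteoclast, endothelial, erythroid and proliferation markers. The sum of cartilage markers was 187657, 115779 and 188950 in rib tissue replicates 1 to 3, so replicate 3 was barely above replicate 1.

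Over the 80 genes of 6 lists covering the pathway and its surroundings, 78 were tested, of which 28 rose in RCS cells and 29 fell. Of all tested genes 32.9% rose and 43.6% fell, and no list is called particular by its counts. Of the 78, 5 had at least 1 normalized count in at most 1 RCS library, entered the test by their rib levels and could only be lower. Among the 7 tested genes of the mevalonate steps, 1 was higher, 2 lower and 4 neither, and all 7 lay within 2-fold, with a median difference of -0.11 against -0.15 for all genes. Besides Hmgcs1, Fdps, which makes farnesyl diphosphate, was lower, at 454, 384 and 399 normalized counts in RCS cells, against 625, 525 and 596 in rib tissue (difference -0.50, limma adjusted p 0.00194), a call lost under median scaling (-0.20). Idi1, the isomerase between them, stood at 203, 177 and 216 in RCS cells, against 152, 177 and 145 in rib tissue, and was called higher by 0.32 (limma adjusted p 0.0374). That call was lost in 8 of 14 alternatives, among them without RCS cells replicate 1 (0.31) or 3 (0.26) and without rib tissue replicate 1 (0.30) or 3 (0.27).

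Of the 13 genes from squalene synthesis to cholesterol, 7 rose in RCS cells (32.9% of all genes did), 4 fell (43.6% of all) and 2 were not called, and the median difference was 0.37, against -0.15 for all genes. Cyp51, listed as CYP51A1, the lanosterol demethylase, stood at 966, 935 and 892 normalized counts in RCS cells, against 531, 513 and 549.97 in rib tissue, differing by 0.81 (SE 0.07, limma adjusted p 1.64e-05). Hsd17b7, a ketoreductase of the demethylation steps, was higher by 1.27 (SE 0.14, limma adjusted p 6.34e-05), at 126, 122 and 150.003 in RCS cells, against 53.8, 59.2 and 50.6 in rib tissue.

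The pair of genes whose products can both reduce the sterol C14 double bond split. Lbr, which is also a receptor of the nuclear lamina, stood at 1047, 1014 and 995 normalized counts in RCS cells, against 428, 424 and 424 in rib tissue, differing by 1.26 (SE 0.07, limma adjusted p 8.9e-07). Tm7sf2 was low in both groups, at 13.8, 10.8 and 15.7 in RCS cells, against 38.2, 44.8 and 34.9 in rib tissue, differing by -1.49 (SE 0.24, limma adjusted p 0.000506). The call was lost under cyclic loess, and the sign turned (0.32) under quantile normalization.

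**Figure D4:**
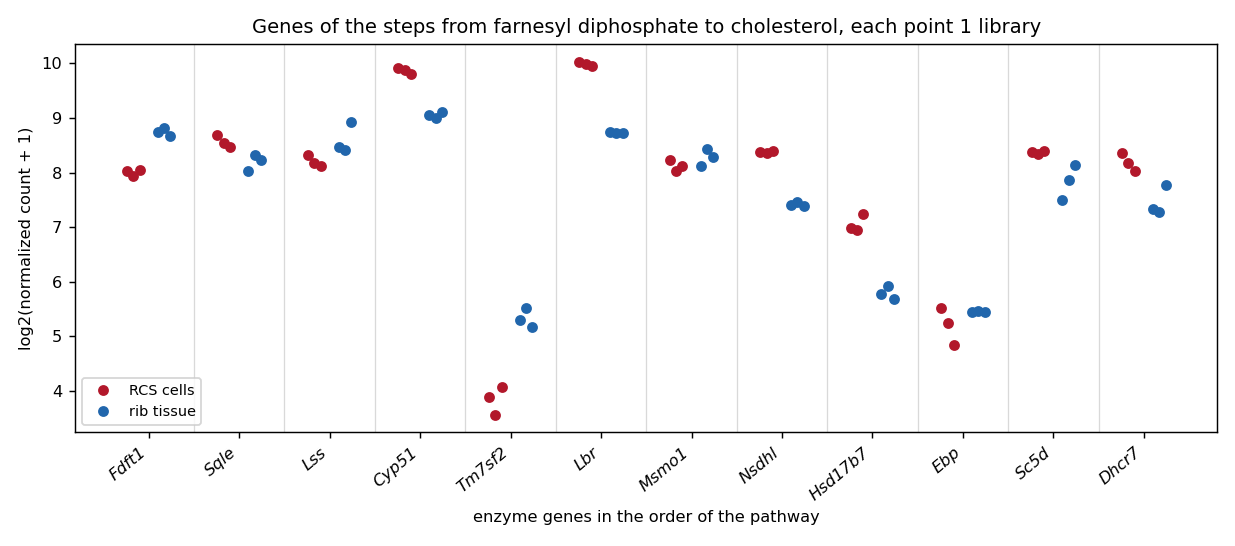
Levels of 12 genes from squalene synthesis to cholesterol as log2(normalized count + 1), 3 RCS libraries in red left of 3 rib libraries in blue, set in pathway order. Lbr, Cyp51, Nsdhl, Hsd17b7, Sc5d, Sqle and Dhcr7 stand higher in RCS cells, and Fdft1, Lss and Tm7sf2 lower.

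SREBPs are held in the endoplasmic reticulum and cut in the Golgi before they reach the nucleus. Of 14 genes of this machinery and of sterol sensing, 6 rose in RCS cells, 2 fell and 6 were not called. Over all tested genes 32.9% rose and 43.6% fell. The median difference of the list was -0.0056, against -0.15 for all genes. The lower pair were Srebf2 and Mbtps1, the first protease that cuts SREBPs, at 825, 834 and 747 normalized counts in RCS cells, against 1359, 1216 and 1346 in rib tissue (difference -0.70, SE 0.08, limma adjusted p 8.48e-05). Erlin1 and Erlin2, membrane proteins of the endoplasmic reticulum that take part in the control of SREBP activation, were higher by 1.18 (SE 0.09) and 0.99998 (SE 0.10), with limma adjusted p 8.36e-06 and 3.97e-05. Scap, the sterol-sensing escort of SREBPs and named here after its values were seen, stood at 1039, 1039.7 and 963 in RCS cells, against 747, 595 and 532 in rib tissue, differing by 0.71 (SE 0.12, limma adjusted p 0.000852). Under cyclic loess 4 genes of the list were lower.

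For uptake of LDL and other lipoproteins and for release of their cholesterol, 13 genes were tested. Of these, 4 rose in RCS cells (32.9% of all genes did), 7 fell (43.6% of all) and 2 were not called. The median difference was -0.31, against -0.15 for all genes. Lrp1, a large scavenging receptor of the LDL receptor family, stood at 1830.4, 1324 and 1137 normalized counts in RCS cells, against 9299, 7636 and 8817 in rib tissue, differing by -2.61 (SE 0.17, limma adjusted p 3.09e-06), or 6.10-fold lower. Mylip, the ubiquitin ligase that marks LDL receptors for degradation, was at 144, 177.5 and 185 in RCS cells, against 381, 378 and 423 in rib tissue (difference -1.22, SE 0.12, limma adjusted p 2.3e-05). Stard3, a sterol carrier of late endosomes, was higher by 0.92 (SE 0.11, limma adjusted p 7.75e-05).

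Lipa, the lysosomal lipase that frees cholesterol from esters, was called higher by 0.41 (limma adjusted p 0.0357), which was lost in 7 of 14 alternatives, among them without RCS cells replicate 1 or 3 and without rib tissue replicate 1 or 3. The count of 4 higher genes of the uptake list was 1 when rib tissue replicate 1 or RCS cells replicate 1 was left out, and 2 when RCS cells replicate 2 or 3 was. Fibroblast markers summed to 194 to 222 normalized counts in RCS cells, against 42894 to 81595 in the ribs. Sums of muscle, adipocyte, macrophage and osteoclast, endothelial and erythroid markers were also lower in every RCS library than in any rib library. Among the ribs the fibroblast sum was lowest in replicate 3, and Lrp1 in replicate 2. The part of any of these cell types in the difference of Lrp1 was not tested.

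Of 15 genes of cholesterol efflux, storage as esters and oxysterols, 4 rose in RCS cells (32.9% of all genes did), 9 fell (43.6% of all) and 2 were not called (median difference -0.33). This balance depended on the processing: quantile normalization gave 6 that rose and 2 that fell, cyclic loess and the 5 CPM filter each gave 4 and 4, and for 5 of the 9 the sign turned under at least 1 alternative. Soat1, which esterifies cholesterol for storage, stood at 964, 908 and 888 normalized counts in RCS cells, against 368, 481 and 524 in rib tissue, differing by 1.02 (SE 0.13, limma adjusted p 0.000131). Nceh1, a hydrolase of such esters, was higher by 1.13 (SE 0.10, limma adjusted p 1.33e-05). Abcg1, an exporter of cholesterol to HDL, had a listed value of 0 in each RCS library and stood at 143, 144 and 69.9 in rib tissue. A listed 0 stands for at most 1 normalized count. Nr1h3, the sterol-activated receptor LXR-alpha, was at 9.30, 1.56 and 9.21 in RCS cells, against 53.4, 48.9 and 19.96 in rib tissue (difference -2.57, SE 0.61, limma adjusted p 0.00463), a call lost with quantile normalization (-0.56) and with cyclic loess (-1.07).

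Osbp, the oxysterol-binding protein gene, differed by -0.03 without passing the test, with a sign that turned under quantile normalization (0.19) and median scaling (0.27), under both of which it was called, and also under cyclic loess (0.031), array weights (0.0033) and without rib tissue replicate 3 (0.0020). The count of 4 higher genes of this list was 2 without RCS cells replicate 2, RCS cells replicate 3 or rib tissue replicate 1. Of its tested genes, 2 were listed at 0 in every RCS library. Macrophage and osteoclast markers, 8 genes, summed to 27.3 to 39.8 in RCS cells, against 1615 to 3067 in the ribs. Abcg1 and Nr1h3 were lowest in rib tissue replicate 3 among the rib libraries. So were the sums of all marker lists but cartilage, so this order is not particular to 1 cell type. The part of any cell type in these differences was not tested.

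Fatty acid synthesis is the arm best known for SREBP-1. Of 16 tested genes of 17 in the list, 6 rose in RCS cells (32.9% of all genes did), 5 fell (43.6% of all) and 5 were not called (median difference 0.02). Fasn, the fatty acid synthase, stood at 3800.4, 3018 and 2762 normalized counts in RCS cells, against 3231, 2934 and 3168 in rib tissue, a difference of 0.03 (limma adjusted p 0.864) that turned to -0.11 without RCS cells replicate 1 and to -0.016 without rib tissue replicate 2, and was called higher under quantile normalization and cyclic loess. Scd, 1 of several related desaturase entries among which reads could be shared, differed by -0.22 (limma adjusted p 0.134), with the sign turned under quantile normalization (0.45, a call), and also under median scaling (0.076) and cyclic loess (0.059).

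Mid1ip1, an activator of acetyl-CoA carboxylase, was higher by 1.17 (SE 0.13, limma adjusted p 6.49e-05) and the elongase gene Elovl5 by 0.81 (SE 0.09, limma adjusted p 5.91e-05). Acacb, the mitochondrial carboxylase of muscle and other oxidative tissue, was at 118, 135 and 137 normalized counts in RCS cells, against 822, 830.02 and 398 in rib tissue (difference -2.31, SE 0.26, limma adjusted p 7.04e-05). Thrsp, a lipogenic gene of fat and liver, was at 0, 1.56 and 0 in RCS cells, against 62.6, 119 and 10.4 in rib tissue. It entered the test by its rib levels alone and could only be lower, so no difference is given. Acacb and Thrsp were each lowest in rib tissue replicate 3 among the rib libraries. So were the sums of all marker lists but cartilage. In rib tissue replicates 1 to 3 adipocyte markers summed to 3692, 3741 and 1746 normalized counts, and muscle markers to 43646, 36904 and 24090. The part of fat, muscle or other tissue in these differences was not tested. Of the 10 adipocyte markers 9 were lower in RCS cells, and 4 of them (Lpl, Cd36, Lep and Cfd) were at 0 in every RCS library. The other, Pparg, the receptor that directs fat cell formation, stood at 147, 150.3 and 177 in RCS cells, against 142, 143 and 48.9 in rib tissue, and was not called (difference 0.65, limma adjusted p 0.146).

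The genes whose profiles over the 6 libraries, each centred on its own mean, lay nearest to those of the 7 genes were sought among well expressed genes (mean of at least 100 normalized counts, 9390 genes compared), by root mean square distance in log2. Dhcr7 lay nearest to the desaturase genes Fads2 (distance 0.033) and Fads1 (0.036), then Gfpt2 (0.063). Fdft1 lay nearest to Jak1 (0.020) and Xiap (0.025), and Lss to Ercc6 (0.040), Sox6 (0.046) and Glmn (0.061). Srebf1 lay nearest to Raver1 (0.020), Aff3 (0.034) and Pcsk6 (0.049).

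Srebf2 lay nearest to Als2cl (0.088), Smad7 (0.095) and Col6a2 (0.097), Hmgcs1 to Atp2b4 (0.074), the septin entry listed as 11-Sep (0.077) and Ssh2 (0.091), and Sqle to Rad50 (0.033), Dclk1 (0.043) and an entry without a usual symbol (0.050). Fads1 stood at 1746, 1489.7 and 1459 normalized counts in RCS cells, against 892, 853 and 1176 in rib tissue. Its difference of 0.69 is near the 0.72 of Dhcr7, as the choice by profile distance makes it. The same holds for the other nearest genes, so this closeness adds no evidence of a link.

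An intron of Srebf2 holds the gene of the microRNA miR-33, known for lowering cholesterol efflux genes. Its RefSeq sequence is shown because the table lists the microRNA as an entry of its own, with the seed, bases 2 to 8, in capitals.
rno-miR-33-5p: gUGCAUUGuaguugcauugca
The entry was listed at 0 in all 6 libraries, in which Srebf2 itself stood at 440.2 to 1224 normalized counts. Whether these libraries could hold mature microRNAs is not given in the sources used here, so its level was not measured.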

How the data were processed

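The authors deposited 1 table of log2 values for 27217 genes in 6 libraries, 3 per group, mapped to the groups by their titles. Per the submitters' processing notes, CASAVA 1.8, DESeq and build rn5 were used, with no role given, and the sources used here do not give the aligner, the counting rule or the use of strand. The deposited log2 values were read as read counts divided by 1 factor per library. In each library a step was found of which the most frequent low values are whole multiples. Of values of at most 10 reads, 38.7% to 54.9% lay within 0.01 of a whole read, so no count model was used. Entries listed as 0 were taken as 0. No library pair was identical (0 pairs).

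The test ran in limma 3.58.1 under R 4.3.3 (group as the one term, variance trend, two-sided) on the scale log2(normalized count + 1), for 16809 genes with at least 1 normalized count in at least 3 libraries, and the procedure was checked on simulated data. The members, lists and rules were chosen with earlier results of these data known. Of 80 list genes, 77 matched by symbol, 2 by Entrez identifier and 1 had no match. Named list genes were the 2 called genes of largest difference in each direction (at least 10 normalized counts in the higher group) and the 2 of highest mean per list, 30 in all, of which 3 are not reported here, and the 3 nearest profiles of each member, leaving out provisional symbols, of which 1 is likewise left out. Alternatives were quantile normalization, median scaling, cyclic loess, a pseudocount of 0.1, no filter, a filter of 5 CPM, array weights, each library left out and a replicate block.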

Additional observations from a re-analysis of the deposited data

How the results depend on the processing

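Over 14 alternatives, Hmgcs1, Fdft1, Srebf2 and Dhcr7 kept their direction and call, and the count of lower genes among the 7 ran from 3 to 5 with a library left out. The count of higher genes among the 7 was 1 under cyclic loess and 1 to 2 with a library left out. Under quantile normalization 19 list genes in place of 29 were lower. Mevalonate genes called higher were 2 under quantile normalization and median scaling, 0 under cyclic loess, no filter, array weights and the replicate block, and 0 to 1 with a library left out, while 1 was lower under median scaling. Under cyclic loess 4 SREBP processing genes were lower and 1 uptake gene was higher, and 1 uptake gene was higher with no filter and 1 to 3 with a library left out. Efflux genes called higher were 2 with no filter and 2 to 4 with a library left out, and those called lower were 2 under quantile normalization and 4 under cyclic loess and the 5 CPM filter, which tests fewer low genes. The cause of the other shifts was not tested.

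Signs turned for Srebf1 (0.11 under quantile normalization, 0.062 under median scaling), Tm7sf2 (0.32 under quantile normalization), Osbp (0.19 under quantile normalization, 0.27 under median scaling, 0.031 under cyclic loess, 0.0033 under array weights, and -0.077 to 0.0020 with a library left out), Scd (0.45, 0.076 and 0.059 under the first 3 of these) and Fasn (-0.11 to 0.12 with a library left out). Of these, Tm7sf2 alone was called as deposited. Over all list genes, named or not, the sign turned for 7 called genes, 5 of them efflux genes.

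Replicate numbers did not pair the libraries: deviations of same-numbered libraries correlated at 0.064, -0.076 and 0.047, and not every library correlated best with its own number. With the replicate number as a block, 5536 genes were higher and 7340 lower, against 5536 and 7324 without it, and the block changed the call of none (0) of the 7 genes. Depth is estimated, and low genes such as Tm7sf2 and Nr1h3 rest on few reads.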
